A study of Mus musculus with 2 samples.

Results

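Periostin and 9 other matricellular genes were followed in the whole omentum, the abdominal fat sheet that carries the milky spots. Matricellular proteins are secreted into the matrix mainly to signal to cells and to organise other matrix proteins, and less to bear load. The 10 genes were chosen by symbol: Postn, the tenascins Tnc and Tnxb, the thrombospondins Thbs1, Thbs2 and Thbs4, the SPARC proteins Sparc and Sparcl1, Spp1 (osteopontin) and Fn1 (fibronectin). All 10 were among the 24346 gene symbols listed in each library. One group was wild-type (WT) mice and the other was Postn-DTR mice, and each group gave 1 library. Postn-DTR mice are heterozygous, with a diphtheria toxin receptor cassette placed in the first coding exon of 1 Postn copy in C57BL/6 zygotes, so that cells using the Postn promoter become sensitive to the toxin. Mice of both genotypes had received diphtheria toxin (DT) intraperitoneally, and tissue was taken 5 days later. The cells meant to be removed were Aldh1a2+ fibroblastic reticular cells (FRCs), but the promoter is also known to be active in myofibroblasts, osteoblasts and colonic epithelial cells. The paper also reports a partial loss of another FRC population and names systemic effects of the ablation as a limit. Age, sex and the number of mice per library were not given in the sources used here. The question behind the comparison was which transcripts could account for lymphocyte recruitment to the milky spots.

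With 1 library per genotype no difference below has a replicate check, no test between genotypes was possible and no p-value is given. Values are FPKM, fragments counted per length of exon and per depth of the library, so that levels can be compared between genes. Pairs of values give WT first and Postn-DTR second. All FPKM of a library added up to 542190 and 671882. The libraries held an estimated 23200000 and 24400000 fragments, read from the steps between low values. The fat and mesothelial markers of omentum were present in both libraries, with Adipoq at 955.2 in WT and 635.9 in Postn-DTR and Wt1 at 52.1 and 63.2. Pancreatic acinar genes, from an organ that adjoins the omentum, added up to 12556 FPKM in the WT library (33 listed genes) and 21.6 in the other. Results with these genes taken out and the totals made equal are given at the end, and the part of other traces of pancreas was not tested.

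Periostin binds integrins and collagen and is known for remodelling tissue and for fibrosis. Tenascins and thrombospondins modulate cell adhesion, and thrombospondin 1 can also activate latent TGF-beta. SPARC proteins bind collagen and take part in fibril assembly, osteopontin is a ligand of integrins and CD44 that macrophages often secrete, and fibronectin forms fibrils to which cells attach through integrins. Most of these proteins are low in resting tissue and higher where tissue is remodelled, though adult fat keeps several of them.

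The Postn locus is shown first because its promoter drives the receptor and its first coding exon holds the insertion. The RefSeq promoter table, on GRCm38, had an entry for 7 of the 10 genes (Postn, Tnc, Tnxb, Sparc, Thbs2, Thbs4 and Spp1). For genes with several entries the one nearest to the annotated gene start was taken. The 250 bases before the Postn start (chr3:54360857-54361106, plus strand) are given with a TATAAA match in capitals, 26 to 21 bases before the start. The coding part of the first exon (chr3:54361143-54361267, plus strand, 125 bases, from the GENCODE M21 transcript) follows with its start codon in capitals. Spp1 is shown beside them because it had the largest change of the 10 genes, with its 250 bases (chr5:104434861-104435110, plus strand) and its motif matches in capitals.

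Postn promoter: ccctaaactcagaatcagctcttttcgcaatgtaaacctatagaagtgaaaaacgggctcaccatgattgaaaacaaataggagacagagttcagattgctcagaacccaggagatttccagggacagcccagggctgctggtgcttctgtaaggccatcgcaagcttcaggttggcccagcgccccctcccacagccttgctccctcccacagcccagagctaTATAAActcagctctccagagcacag

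Postn first coding exon: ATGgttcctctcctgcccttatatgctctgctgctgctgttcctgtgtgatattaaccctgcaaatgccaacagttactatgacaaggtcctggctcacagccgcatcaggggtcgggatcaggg

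Spp1 promoter: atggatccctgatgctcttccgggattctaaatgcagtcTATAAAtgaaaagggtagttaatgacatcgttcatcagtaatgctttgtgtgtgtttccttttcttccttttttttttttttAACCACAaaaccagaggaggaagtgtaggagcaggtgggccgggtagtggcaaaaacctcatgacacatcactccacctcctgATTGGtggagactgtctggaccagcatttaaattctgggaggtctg

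Motifs were searched on both strands. The TATA box was searched as TATAAA and the CCAAT box by the letters of its name. The AP-1 motif was searched as TGANTCA, the SP1 motif as GGGCGG and the RUNX motif as AACCACA, and no match overlapped another. In the Spp1 window the TATA box letters lay 211 to 206 bases before the start, the RUNX motif 129 to 123 bases before it and the CCAAT box, on the opposite strand, 46 to 42 bases before it. The TATA box letters also occurred in the windows of Tnc and Thbs2, the CCAAT box in that of Thbs2, the SP1 motif in those of Tnc and Thbs4, and the AP-1 motif in that of Tnxb alone among the 7. The Sparc window held none of the 5. Over all 32851 windows of this length in the table, 12.4% held the TATA box letters, 33.8% the CCAAT box, 6.75% the AP-1 motif, 32.7% the SP1 motif and 4.4% the RUNX motif. These are matches of letters only.

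The 10 genes did not move together. Postn was lower in Postn-DTR, Spp1 and Thbs1 were far higher, Sparc, Sparcl1 and Tnxb were each lower by about the same modest factor, and Fn1, Tnc and Thbs2 were modestly higher. Genes were compared by the change of log2(FPKM + 1) from WT to Postn-DTR, where the mean FPKM of both libraries was at least 1. This left 13127 genes and 9 of the 10, with Thbs4 under the minimum. At least 2-fold lower was 1 of the 9 (Postn), against 3.12% of all genes compared, and at least 2-fold higher were 2 of the 9 (Spp1 and Thbs1), against 3.88%. Postn is the targeted locus, so its lower value was built into the design. None of the other genes of the 9 was at least 2-fold lower. Of the 9, 4 had a change below 0 and 5 above, and their median change was 0.53, against 0.02 for all genes. From the 5th to the 95th percentile the changes of all genes ran from -0.79 to 0.87.

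**Figure D1:**
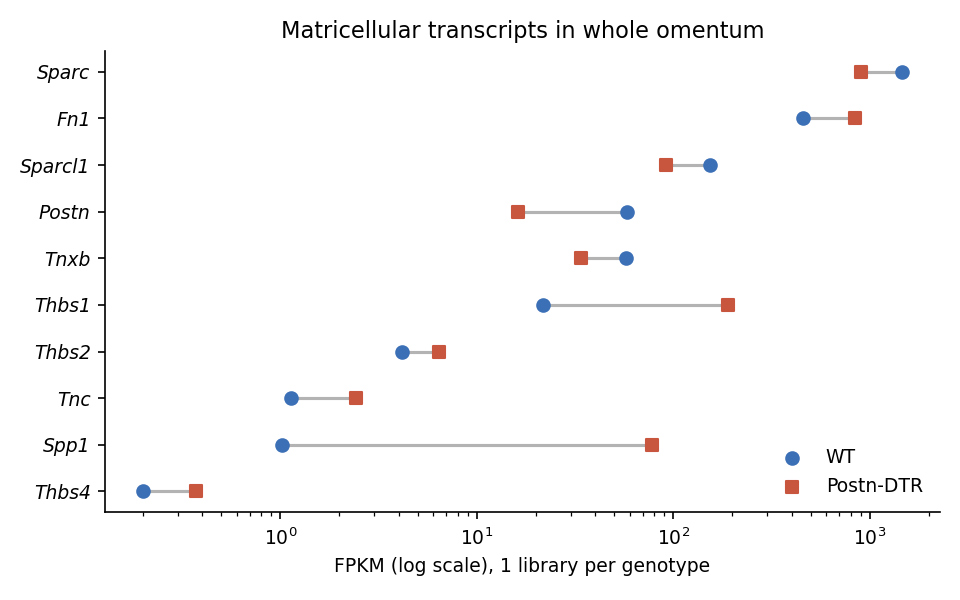
FPKM of the 10 genes in the WT (circles) and Postn-DTR (squares) library, on a log axis, with 1 library per genotype and a line joining the values of a gene. Postn moves from 58.3 to 16.2, while Spp1 moves from 1.02 to 78.3 and Thbs1 from 21.8 to 189.6.

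**Figure D2:**
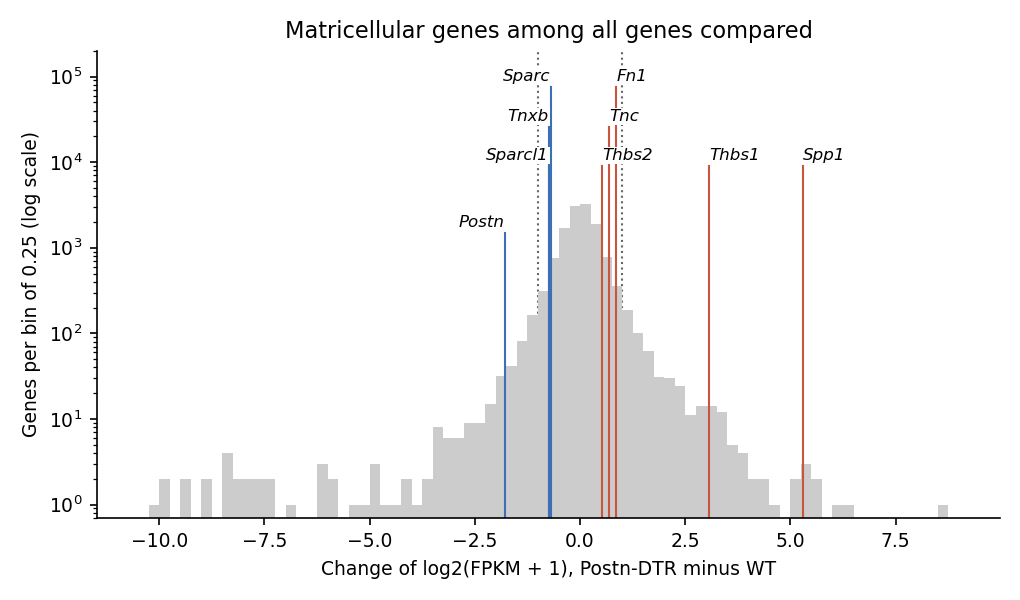
Changes of log2(FPKM + 1) from WT to Postn-DTR, for the 13127 genes compared (grey bars, counts per bin on a log axis), with 9 of the 10 genes as vertical lines and 2-fold as dotted lines. Postn, Thbs1 and Spp1 lie outside the dotted lines and the other 6 lie inside.

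The order of the levels changed with genotype. In WT it ran Sparc, Fn1, Sparcl1, Postn, Tnxb, Thbs1, Thbs2, Tnc, Spp1, Thbs4. In Postn-DTR it ran Sparc, Fn1, Thbs1, Sparcl1, Spp1, Tnxb, Postn, Thbs2, Tnc, Thbs4. Postn and Tnxb were 1.02-fold apart in WT, and Sparc and Fn1 1.07-fold apart in Postn-DTR, and no replicate spread was available to say whether such neighbours differ. The summed FPKM of the 10 genes was 2212 in WT and 2153 in Postn-DTR, or 0.408% and 0.321% of all FPKM in the library. Sparc made up 65.8% of the sum in WT and 41.7% in Postn-DTR, Fn1 20.8% and 38.9%, Thbs1 0.986% and 8.80%, Spp1 0.0462% and 3.64%, and Postn 2.64% and 0.750%.

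Postn encodes periostin, and its allele carries the insertion. Its FPKM was 58.3 in WT and 16.2 in Postn-DTR, so the library labelled Postn-DTR had the lower value. The ratio was 3.61-fold lower, with a 95% interval of 3.38 to 3.86, and the change was -1.79. The interval comes from an exact binomial on about 4060 and 1176 estimated reads, and like the other intervals here it covers counting error only. This was decrease number 116 by size among the 13127 genes. In whole tissue fewer cells of a type and less RNA per cell cannot be told apart, and neither can the loss of 1 Postn copy in all cells from the loss of cells that used it. Postn fell from rank 1451 of all genes by FPKM in WT to rank 5291 in Postn-DTR and remained detected.

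Tenascin C, made by activated fibroblasts in injured tissue, and tenascin X, which spaces and stabilises collagen fibrils in loose connective tissue, went opposite ways. Tnc (chromosome 4, 63959785 to 64047015, minus strand) was at 1.13 and 2.44, or 2.15-fold higher with an interval of 1.80 to 2.58. Its change was 0.69, under the 2-fold threshold, because a pseudocount of 1 compresses values this low. Tnxb (chromosome 17, 34670535 to 34719815, plus strand) was at 57.2 and 33.9, or 1.69-fold lower (1.65 to 1.73), with a change of -0.74. Tnxb was thus 50.5 times Tnc in WT and 13.9 times Tnc in Postn-DTR.

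Thrombospondins 1 and 2 are trimers that bind CD36 and CD47 and restrain angiogenesis, and thrombospondin 4 is a pentamer of tendon, muscle and nerve. Thbs1 (chromosome 2, 118111876 to 118127133, plus strand) was at 21.8 and 189.6. The value was 8.70-fold higher, with an interval of 8.37 to 9.04 and a change of 3.06, and it was increase number 50 by size among the 13127 genes. Thbs2 (chromosome 17, 14665500 to 14694235, minus strand) was at 4.14 and 6.42, or 1.55-fold higher (1.39 to 1.73), with a change of 0.53. Thbs1 was 5.26 times Thbs2 in WT and 29.5 times Thbs2 in Postn-DTR. Thbs4 (chromosome 13, 92751590 to 92794818, minus strand) was at 0.200 and 0.373, about 14 and 27 estimated reads, and its ratio of 1.86 had an interval of 0.944 to 3.85, so a difference was not detectable at this depth.

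Sparc (osteonectin), which binds collagen, and Sparcl1 (hevin), a relative of it that is abundant in vessels, had nearly the same ratio. Sparc (chromosome 11, 55394500 to 55423183, minus strand) was at 1455 and 897.9, 1.62-fold lower (1.60 to 1.64) with a change of -0.70. By FPKM it ranked 39 in WT and 121 in Postn-DTR. Sparcl1 (chromosome 5, 104079111 to 104113733, minus strand) was at 154.0 and 91.6, 1.68-fold lower (1.63 to 1.74) with a change of -0.74. Sparc was 9.45 times Sparcl1 in WT and 9.80 times in Postn-DTR, so the proportion of the pair hardly differed while both values were lower. Neither reached 2-fold.

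Spp1 encodes osteopontin, a phosphorylated adhesion protein and cytokine of activated macrophages, bone cells and epithelia. Spp1 (chromosome 5, 104435118 to 104441050, plus strand) was at 1.02 and 78.3. The ratio was 76.6-fold higher, with an interval of 53.9 to 113.1 on about 31 and 2458 estimated reads. The change of 5.29 was increase number 9 by size. In WT the FPKM of Postn was 57.1 times that of Spp1, and in Postn-DTR Spp1 was 4.85 times Postn.

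Fn1 encodes fibronectin, which fibroblasts assemble into fibrils and which resident peritoneal macrophages also express strongly. Fn1 (chromosome 1, 71585520 to 71653200, minus strand) was at 459.1 and 836.8, 1.82-fold higher (1.81 to 1.84) with a change of 0.86, under the threshold. It ranked 176 by FPKM in WT and 128 in Postn-DTR. Sparc was 3.17 times Fn1 in WT but 1.07 times Fn1 in Postn-DTR. The annotation holds 17 Fn1 transcripts, and the deposited value does not separate them.

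The other matricellular genes were taken from a list of 22, of which 12 passed the expression minimum. At least 2-fold lower was 1 of the 12, against 3.12% of all genes compared, and at least 2-fold higher were 2, against 3.88%. The same shares stand beside the counts of the lists below. The median change was 0.38, and it was 0.07 at equal totals, where that of all genes was -0.28. Ctgf (also named Ccn2), a CCN protein induced by TGF-beta and by YAP, was at 18.2 and 88.2, 4.86-fold higher. Spock2 (testican 2), a proteoglycan of the SPARC family, was at 8.86 and 40.5, 4.56-fold higher. Vtn (vitronectin), an adhesive glycoprotein of plasma that pericytes also express, was at 9.48 and 0.565, 16.8-fold lower.

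Within families the values spread. In the SPARC family of 8 genes 7 were compared and 1 was at least 2-fold higher (Spock2). Smoc1 (24.3 and 16.7) and Fstl1 (126.0 and 101.4) were lower as Sparc was, whereas Smoc2 (18.2 and 30.6) was higher. Of the 6 CCN genes 4 were compared and 1 was at least 2-fold higher (Ctgf). Below 2-fold were Wisp2 (Ccn5) at 3.90 and 5.28, Cyr61 (Ccn1) at 19.9 and 37.4, and Nov (Ccn3) at 5.75 and 9.78. Thbs3, the remaining thrombospondin compared, was at 17.1 and 10.4. Tgfbi, the relative of Postn with the same fasciclin domains, was at 95.2 and 126.9, so Postn was 0.613 times Tgfbi in WT and 0.127 times in Postn-DTR.

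**Figure D3:**
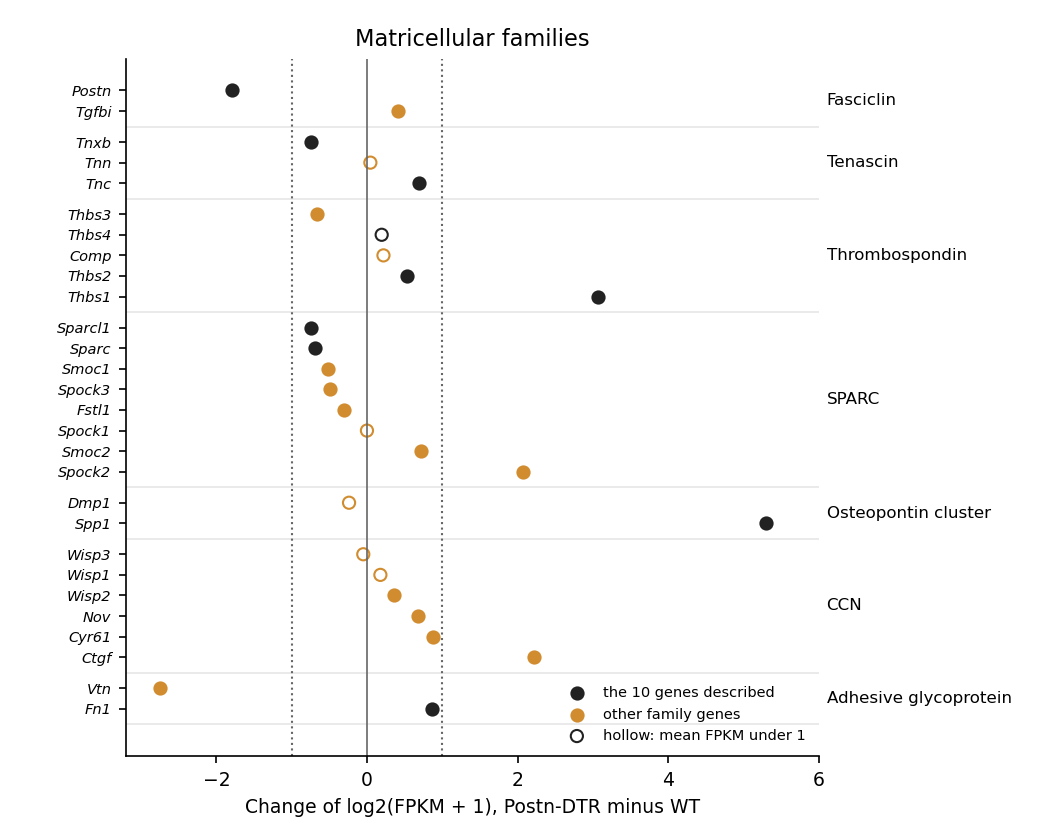
Change of log2(FPKM + 1) from WT to Postn-DTR, for the 10 genes (black) and other genes of their families (orange), with hollow points for a mean FPKM under 1 and dotted lines at 2-fold. Genes listed at 0 in both libraries are left out. Spp1, Thbs1, Ctgf and Spock2 lie beyond the right dotted line and Postn and Vtn beyond the left.

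The receptors were read next. Of 17 receptor genes 14 were compared, none was at least 2-fold lower and 1 was at least 2-fold higher. This was Lrp1, an endocytic receptor that clears thrombospondins, at 87.9 in WT and 186.8 in Postn-DTR. Its change was 0.74 at equal totals, so that no receptor was then 2-fold higher. The median change was 0.24, against 0.02 for all genes. At equal totals it was -0.10, where that of all genes was -0.28, and with scaling to the 75th percentile it was 0.16. Sdc4 (syndecan 4), a co-receptor for fibronectin, was at 81.2 and 152.2. Itga5, the alpha chain of the classical fibronectin receptor, was at 22.6 and 31.7, and its partner Itgb1 at 141.6 and 178.0, with a change of 0.33 that became -0.014 at equal totals. The integrin chains used by periostin and osteopontin were at 8.58 and 6.85 for Itgav, 6.99 and 9.05 for Itgb3, and 36.7 and 28.3 for Itgb5. Cd44, an osteopontin receptor, was at 43.0 and 44.3. Its change of 0.04 turned to -0.29 at equal totals and was also below 0 under scaling to the 75th percentile. The thrombospondin receptors Cd36 and Cd47 were at 308.9 and 244.3 and at 45.0 and 60.0.

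Among 9 inducers and partners 7 were compared, none lower and 1 higher by at least 2-fold. This was Lox, the collagen cross-linking enzyme that periostin helps to activate through BMP1, at 20.7 in WT and 53.9 in Postn-DTR. Bmp1 itself was at 63.1 and 54.7. Tgfb1, whose product induces Postn, Ctgf and Fn1, was at 49.6 and 44.2. Il4ra, the shared receptor chain for IL-4 and IL-13, which induce Postn, was at 26.6 and 53.4, with a change of 0.98. The median of the list was 0.13, and -0.16 at equal totals, where that of all genes was -0.28. The 10 collagen genes that matricellular proteins bind were lower in 9 cases, with a median of -0.50, against 0.02 for all genes. The median became -0.83 at equal totals. Col6a3, of the microfibrillar collagen VI, was at least 2-fold lower, at 46.9 and 20.9, and at equal totals Col3a1 (-1.20) and Col6a2 (-1.14) passed 2-fold as well. In that setting 5.59% of all genes compared were at least 2-fold lower. Col3a1, the main collagen of reticular fibres, was at 1264 and 698.8, with a change of -0.85.

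Marker lists of cells that could supply these transcripts were read beside the values, and their part in the results was not tested. All 6 macrophage markers had a change above 0, with a median of 1.12, against 0.02 for all genes, and 3 at least 2-fold higher. Their levels added up to 2869 and 4616 FPKM. The median became 0.78 at equal totals, where that of all genes was -0.28. Csf1r (0.12), Lyz2 (0.19) and Mrc1 (0.22) then lay above the median of all genes but under 2-fold. Adgre1 (1.38), Cd68 (1.35) and Itgam (2.06) stayed above 2-fold. By cell counts the paper reported unaltered macrophage numbers in omentum and peritoneal cavity of Postn-DTR mice. Whether the marker values reflect cell number or RNA per cell was not tested. The 5 markers of large peritoneal macrophages, cells that express Fn1, summed to 153.6 and 992.2. This sum rested on Prg4 (38.0 and 545.0) and Alox15 (33.1 and 317.0), whereas the defining factor Gata6 was at 18.6 and 33.1 and Timd4 at 29.6 and 39.2. The markers of lipid-associated macrophages, which are known for Spp1, summed to 614.0 and 885.4, with Gpnmb at 5.597 and 44.2, Trem2 at 40.5 and 145.6, and Fabp5, which adipocytes and endothelium share, at 199.6 and 86.3. Platelet markers, relevant because platelets store thrombospondin 1, summed to 149.8 and 285.4, nearly all of it Pf4, which macrophages also express. Itga2b was at 1.88 and 3.001 and Gp9 at 0.282 and 0.545. Neutrophil markers summed to 330.1 and 588.6, nearly all of it S100a8 and S100a9. Mpo, the myeloperoxidase of neutrophil granules, was at least 2-fold lower, at 3.84 and 0.726.

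Stromal markers did not share a direction. The 7 fibroblast markers had a median change of 0.17, and of 0.09 with scaling to the 75th percentile. At equal totals it was -0.17, where the median of all genes was -0.28. Their sums were 2299 and 2387, with Dcn at 1875 and 2152 and Pdgfra at 25.96 and 29.2. Dpt (236.9 and 67.3) and Pdgfrb (41.3 and 17.3) were at least 2-fold lower. Of the 6 markers of Aldh1a2+ FRCs 5 were compared, with a median change of -0.11 that was -0.42 at equal totals. Aldh1a2, the retinoic acid-producing enzyme that names these cells, was at 85.5 and 63.3. The paper cites earlier reports of Aldh1a2 expression in mesothelial cells and fibroblasts of omentum. Ptx3, a secreted pentraxin, was at 1.397 and 6.30, the one marker of this list that was at least 2-fold higher. Ace was at 46.5 and 56.9, Adm at 14.2 and 13.1, and Tek at 8.96 and 7.61. Phex was under the expression minimum, at 0.340 and 0.0137. The 5 mural markers, of pericytes and smooth muscle, had a median of -0.90, with Rgs5 at 30.6 and 2.56 and Notch3 at 21.3 and 3.53, whereas Acta2 was at 94.6 and 108.9. Endothelial markers, of cells that express Sparcl1, summed to 235.3 and 224.2, mesothelial markers to 363.5 and 342.1, and adipocyte markers, of cells that express Sparc, to 1812 and 1437. The mesothelial members went apart, with Lrrn4 at least 2-fold lower (62.7 and 29.2) and Msln (mesothelin) at 37.2 and 67.9. The 3 glial markers were all under the expression minimum, and Sox10 was listed at 0 in Postn-DTR. No list had all its markers at 0 in either library.

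**Figure D4:**
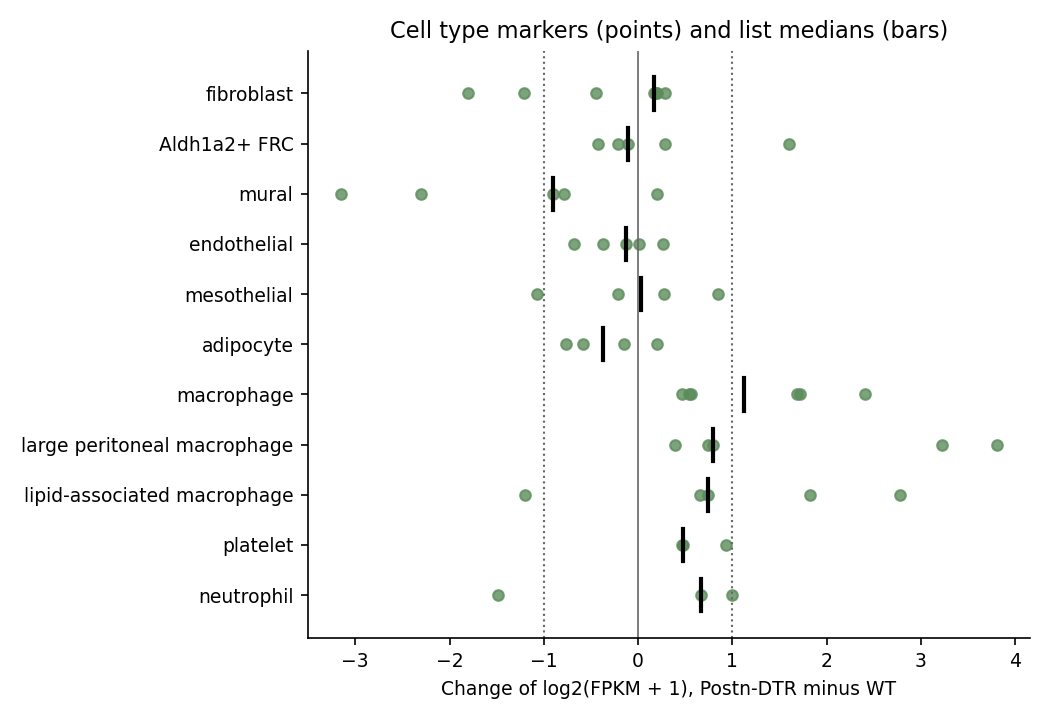
Change of log2(FPKM + 1) from WT to Postn-DTR, of the compared markers of each cell type (points) with the median of each list (bars) and dotted lines at 2-fold. All points of the macrophage and large peritoneal macrophage lists lie right of 0, while Fabp5 of the lipid-associated list lies beyond the left dotted line. The mural list has the lowest median, at -0.90.

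The genes nearest to Postn and Spp1 were sought in the plane of both log2(FPKM + 1) values, over the 2 libraries only. Nearest to Postn were Ccl19 (61.1 in WT and 17.8 in Postn-DTR), a T zone chemokine of FRCs, Slc25a10 (64.6 and 16.7), a mitochondrial dicarboxylate carrier, Hmgcs1 (51.9 and 17.1), of cholesterol synthesis, A530016L24Rik (54.4 and 19.3) and Tmem45b (50.04 and 13.7). Their distances were 0.147 to 0.31 log2 units. By quantitative PCR of replicate mice the paper reported comparable Ccl19 levels in WT and Postn-DTR omenta, unlike the values of these libraries. Among the nearest to Spp1 were Serpina3m (2.03 and 138.1), F10 (3.08 and 64.5), which encodes coagulation factor X, Cxcl1 (1.78 and 34.9), a neutrophil chemokine, and Rnd1 (4.18 and 50.9). These lay farther away, at 1 to 1.49 log2 units.

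The directions of the 9 compared genes held under all 5 other pseudocounts and scalings tried for single genes. Taking out the acinar genes and making the totals equal shifted the median change of all genes by -0.30. Acinar genes held 12556 of 542190 summed FPKM in WT and 21.6 of 671882 in Postn-DTR. Most of the shift therefore came from making the totals equal and not from the removal of these genes. Against the fixed threshold Tnxb (-1.07), Sparc (-1.04) and Sparcl1 (-1.08) then passed 2-fold, so 4 of the 9 were lower. Over all genes this setting gave 732 lower and 297 higher in place of 410 and 509, so that the higher share of all calls was 28.9% in place of 55.4%. Fn1 then had a change of 0.52. Tnc passed 2-fold with a pseudocount of 0.1, at 1.04.

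**Figure D5:**
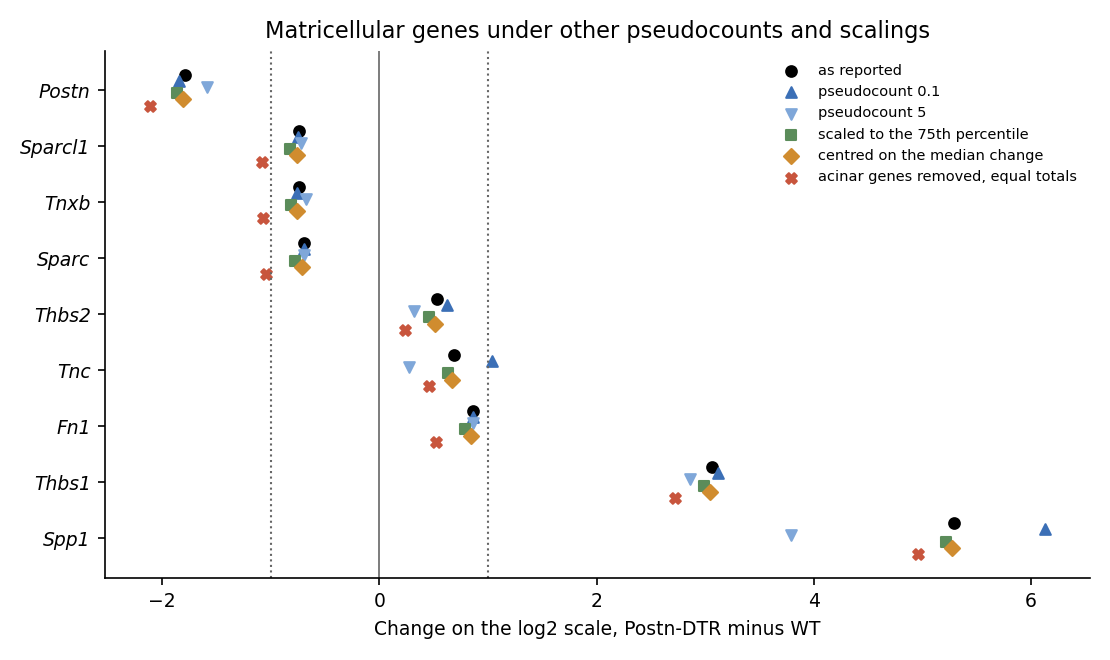
Change on the log2 scale from WT to Postn-DTR of the 9 compared genes as reported and under 5 alternatives, with dotted lines at 2-fold. No gene crosses 0, and Sparc, Sparcl1 and Tnxb cross the left dotted line at equal totals only.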

How the data were processed

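Total RNA from whole omentum was extracted with a miRNeasy kit and made into stranded TruSeq mRNA libraries, per the labels; the RNA-seq methods of the study describe another kit, for sorted cells. The authors deposited FPKM, 1 value per gene symbol and library. The submitters' processing notes name TopHat2 2.1.1, Bowtie2 2.2.8, SAMtools 0.1.18 and Cuffdiff 2.2.1 and the build mm10. Annotation and strand setting were not given in the sources used here. Of the 10 genes, 6 overlap another annotated gene (Tnc, Tnxb, Sparcl1, Thbs1, Spp1 and Fn1). Only at Spp1 is that gene on the same strand. Reads at the others could be shared only if strand was not used in counting. The one overlapping gene with a listed value was Apol7d, at Fn1, at 0.130 and 0.0419 FPKM.

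Positions came from GENCODE M21 (GRCm38, the same assembly as mm10) and promoters from RefSeq (GRCm38.p6). Python 3.11.15 with pandas 2.3.3, numpy 2.4.6 and scipy 1.17.1 was used. The change was log2(FPKM + 1) from WT to Postn-DTR, a scale on which the folds of low genes come out too small. Folds are FPKM ratios without the pseudocount. Depth was estimated by finding the fragment total at which most low FPKM of genes with 1 transcript were whole reads within 0.05. This held for 73.6% of 496 values in WT and 73.5% of 451 in Postn-DTR, with lengths reduced by 210 and 220 bases. Reads per gene are approximate, since they use the longest coding transcript. The calls and the depth estimate were tested on simulated data.

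The genes and the lists (other matricellular genes, receptors, inducers and partners, collagens and 12 cell type marker lists) were chosen with earlier results of these data known. Genes named were the 10, list members at least 2-fold changed or needed for their role, and the 5 nearest to Postn and to Spp1, leaving out microRNA and snoRNA genes. One of the genes nearest to Spp1 is not reported here. Alternatives were pseudocounts of 0.1 and 5, scaling to the 75th percentile, centring on the median, removal of acinar genes with equal totals, no minimum, a mean FPKM of at least 10, and thresholds of 1.5-fold and 3-fold.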

Additional observations from a re-analysis of the deposited data

How the results depend on the processing

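No paired analysis was possible because each genotype had 1 library, and for the same reason no library could be left out. The decrease of Postn, at -1.79, was -1.58 with a pseudocount of 5 and -2.11 with the acinar genes removed and equal totals. The number of the 9 genes at least 2-fold lower, 1 as reported, was 4 at equal totals and 4 with a 1.5-fold threshold. Of all genes compared, 5.59% and 8.84% were lower in these settings. The number at least 2-fold higher, 2 as reported, was 3 with a pseudocount of 0.1 and 4 with a 1.5-fold threshold, against 4.89% and 9.86% of all genes. For all genes compared, the 410 lower genes became 643 and 168 with pseudocounts of 0.1 and 5, 732 at equal totals, 173 at a minimum of 10 FPKM, and 1160 and 153 at 1.5-fold and 3-fold. Of higher genes, 509 as reported, there were 642 and 287 with pseudocounts of 0.1 and 5 and 297 at equal totals. There were 303 at a minimum of 10 FPKM, and 1294 and 199 at 1.5-fold and 3-fold. Stricter thresholds and minimums lower a count by construction. Of the low genes, Thbs4 and WT Spp1 rest on about 14 and 31 estimated reads in WT, which limits their ratios.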

Other observations

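Spp1 and Sparcl1 are neighbours. Both lie with Dspp, Dmp1, Ibsp and Mepe in a stretch of 362 kb on chromosome 5 (104079111 to 104441050, GRCm38) that holds the genes of the osteopontin family, acidic proteins known from bone and teeth. At the ends of this stretch Sparcl1 was lower (154.0 in WT and 91.6 in Postn-DTR) and Spp1 higher (1.02 and 78.3). Between them, Dspp, Ibsp and Mepe were listed at 0 in both libraries and Dmp1 was at 0.352 and 0.146. Thbs2 and Smoc2 lie within 415 kb of chromosome 17 (14279506 to 14694235), and both were modestly higher, at 4.14 and 6.42 for Thbs2 and 18.2 and 30.6 for Smoc2. These stretches were chosen after the values were seen.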
